A study of Rattus norvegicus with 20 samples.

Results

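The connexins Gja4 (Cx37), Gja5 (Cx40), Gja1 (Cx43) and Gjc1 (Cx45) are the 4 connexins of the blood vessel wall, and their transcripts were followed here across 5 groups of rats. Members were chosen by gene name among the probes of an Agilent rat array. Each of the 4 genes had 1 probe, of 30367 distinct probes in all, and all 4 were among the 16424 genes tested. The Gjc1 probe carries the older name Gja7 in the files and was assigned through its transcript accession. Each of 20 single-colour arrays held RNA of the mesenteric artery, dissected whole, of 1 rat, with 4 rats a group. Untreated WKY rats, of the normotensive Wistar-Kyoto strain, served as controls. Further WKY rats had the 2-kidney, 1-clip operation (2K1C), which narrows a renal artery and leaves the other kidney, or the 1-kidney, 1-clip operation (1K1C), which also removes it. SHR, the spontaneously hypertensive strain, and SHRSP, its stroke-prone substrain, had no operation in the labels, and all strains were Izm colonies. The labels give an age of 6 weeks for all rats and a span of 3 weeks for WKY after the operation or without one, and do not say at which end of that span the age was taken. No blood pressure was examined here.

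Connexins are membrane proteins that assemble into hexameric hemichannels, and hemichannels of neighbouring cells dock to form gap junctions that pass ions and small molecules. In arteries, Cx40 and Cx37 are chiefly endothelial and also sit in the contacts between endothelium and smooth muscle, where they help carry hyperpolarization into the muscle layer. Cx43 is found in smooth muscle, in endothelium at disturbed flow and in many other cells, and Cx45 is chiefly a smooth muscle connexin. Gja4 and Gja5 are linked in textbooks to arterial identity and laminar flow, through Notch and Klf2 among others.

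The following 30 bases open each 60-base probe, and they show which transcript each value measures.
Gja4 probe: gccttagtgatgaccaaaggacactggctt
Gja5 probe: cttcgatggtgaggtttttcagaagagaaa
Gja1 probe: acaaaaacaaaactcatcacagatgattga
Gjc1 probe: atccagtacactgagttgtccaatgctaag
The files place the Gja4 probe at chr5:146755345-146755404 on the minus strand, the Gja5 probe at chr2:191843785-191843844 on the plus strand and the Gja1 probe at chr20:35422026-35422085 on the plus strand, all on rn4, and list the Gjc1 probe as unmapped. Whether the probes lie in coding sequence or in a UTR was not examined. The longest run of bases that a member probe shared with a probe of any other gene on the array was 13 bases for Gja4 and Gja1, 14 for Gja5 and 16 for Gjc1. With the probes of other connexins the longest shared run was 10 bases, for Gja1. Levels are compared within a probe only, since probes differ in how strongly they bind.

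All 4 probes were well above background on 20 of 20 arrays. The processed signal ran from 828.9 to 5245 for Gja4, from 340 to 3015 for Gja5, from 406 to 1781 for Gja1 and from 138 to 415 for Gjc1. Levels below are log2 signal minus the 75th percentile of the array, so 0 is a transcript at that percentile. The spread between spots of one array was small beside that between arrays of a group. For Gja4, the SD between the 2 spots of an array was 0.035 and the SD between arrays of a group 0.69, or 19.6 times as much. For Gja5 these were 0.085 and 0.78, a ratio of 9.13. For Gja1, with 10 spots, they were 0.054 and 0.33, and for Gjc1, with 2 spots, 0.067 and 0.41. Among all tested genes the median SD between arrays of a group was 0.31, so Gja4 lay at the 89.3rd percentile and Gja5 at the 91.8th, with Gja1 at the 55.8th and Gjc1 at the 68.7th. Gja4 and Gja5 thus varied more between arrays of a group than most transcripts did. Each array held the RNA of a single rat, so differences between rats cannot be told apart from those between dissections or hybridisations.

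Per array, 66.5% to 71.7% of the gene probes' spots exceeded background clearly. The arrays lay on 3 slides, each with its own scan. Slide 1 held 2K1C, slide 2 held 1K1C and untreated WKY, and slide 3 held SHR and SHRSP. A comparison across slides therefore cannot be told apart from a difference between slides, and the comparisons made on a single slide were SHRSP with SHR and 1K1C with its untreated controls. The labels call the arrays biological replicates, and their number limits the precision of each value. Of the endothelial markers 11 of 13 were tested and of the smooth muscle markers 11 of 12, and all 11 endothelial markers, Pecam1 and Kdr among them, were well above background on 20 of 20 arrays. Among the smooth muscle markers Acta2, Myh11 and Tagln were above background on 20 of 20 arrays and Myocd on 19. In whole artery, fewer cells of a type and less RNA per cell cannot be told apart.

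Gja5 encodes Cx40, the connexin most characteristic of arterial endothelium. The Gja5 level in untreated WKY was 0.27, -0.092, -0.54 and 1.31 on the 4 arrays. In 1K1C it was 1.13, -1.17, 0.71 and 0.32, and in 2K1C it was 1.50, 0.94, 1.14 and -0.0043. In SHR it was 0.23, 1.28, 1.27 and 1.48, and in SHRSP 0.51, 1.26, 1.86 and -0.014. Every group overlapped untreated WKY. In each of 1K1C, 2K1C and SHR 1 low array stood below the rest, and the SHRSP arrays were spread from -0.014 to 1.86. The group means in rising order were 0.24 ± 0.79 (SD, n = 4) in untreated WKY, 0.25 ± 1.00 in 1K1C, 0.89 ± 0.64 in 2K1C, 0.90 ± 0.82 in SHRSP and 1.06 ± 0.56 in SHR. None of these neighbours differed beyond their spread.

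Gja4 encodes Cx37, which pairs with Cx40 in endothelial gap junctions. In untreated WKY the Gja4 level was 1.49, 0.098, 0.17 and 1.82, a pair of low arrays and a pair of higher ones. In 1K1C it was 1.50, 0.60, 1.79 and 1.81, and in 2K1C it was 2.79, 2.81, 2.23 and 1.43. In SHR it was 1.16, 2.27, 2.25 and 3.01, and in SHRSP 1.71, 1.97, 2.51 and 1.21. Each group reached below the highest untreated WKY array, so no group stood apart from the controls. The means ran from 0.89 ± 0.89 (SD, n = 4) in untreated WKY through 1.43 ± 0.57 in 1K1C, 1.85 ± 0.54 in SHRSP and 2.17 ± 0.76 in SHR to 2.32 ± 0.65 in 2K1C, and no neighbours in that order differed beyond their spread.

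Gja1 encodes Cx43, the most widely expressed connexin of the body. Its level was 0.027, 0.096, 0.41 and -0.58 in untreated WKY, 0.42, 0.23, -0.016 and 0.23 in 1K1C, and -0.24, 0.16, 0.066 and -0.90 in 2K1C. In SHR the Gja1 level was 0.37, 0.099, 0.42 and 0.087, and in SHRSP 0.22, -0.13, 0.090 and 0.58. The lowest array was 2K1C replicate 4, and all groups overlapped. Group means ran from -0.23 ± 0.48 (SD, n = 4) in 2K1C over -0.013 ± 0.41 in untreated WKY, 0.19 ± 0.30 in SHRSP and 0.21 ± 0.18 in 1K1C to 0.25 ± 0.18 in SHR, each within the spread of its neighbours.

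Gjc1 encodes Cx45, a connexin of smooth muscle and of the developing heart. Its level was -2.63, -1.61, -1.11 and -1.56 in untreated WKY, -1.66, -1.40, -1.53 and -1.50 in 1K1C, and -1.18, -1.51, -1.46 and -2.46 in 2K1C. In SHR the Gjc1 level was -1.83, -1.39, -1.44 and -1.44, and in SHRSP -1.40, -1.70, -1.36 and -1.86. Low values came from 1 array of untreated WKY and 1 of 2K1C, and the groups overlapped throughout. The means lay close together, from -1.73 ± 0.64 (SD, n = 4) in untreated WKY over -1.65 ± 0.55 in 2K1C, -1.58 ± 0.24 in SHRSP and -1.52 ± 0.11 in 1K1C to -1.52 ± 0.21 in SHR.

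**Figure D1:**
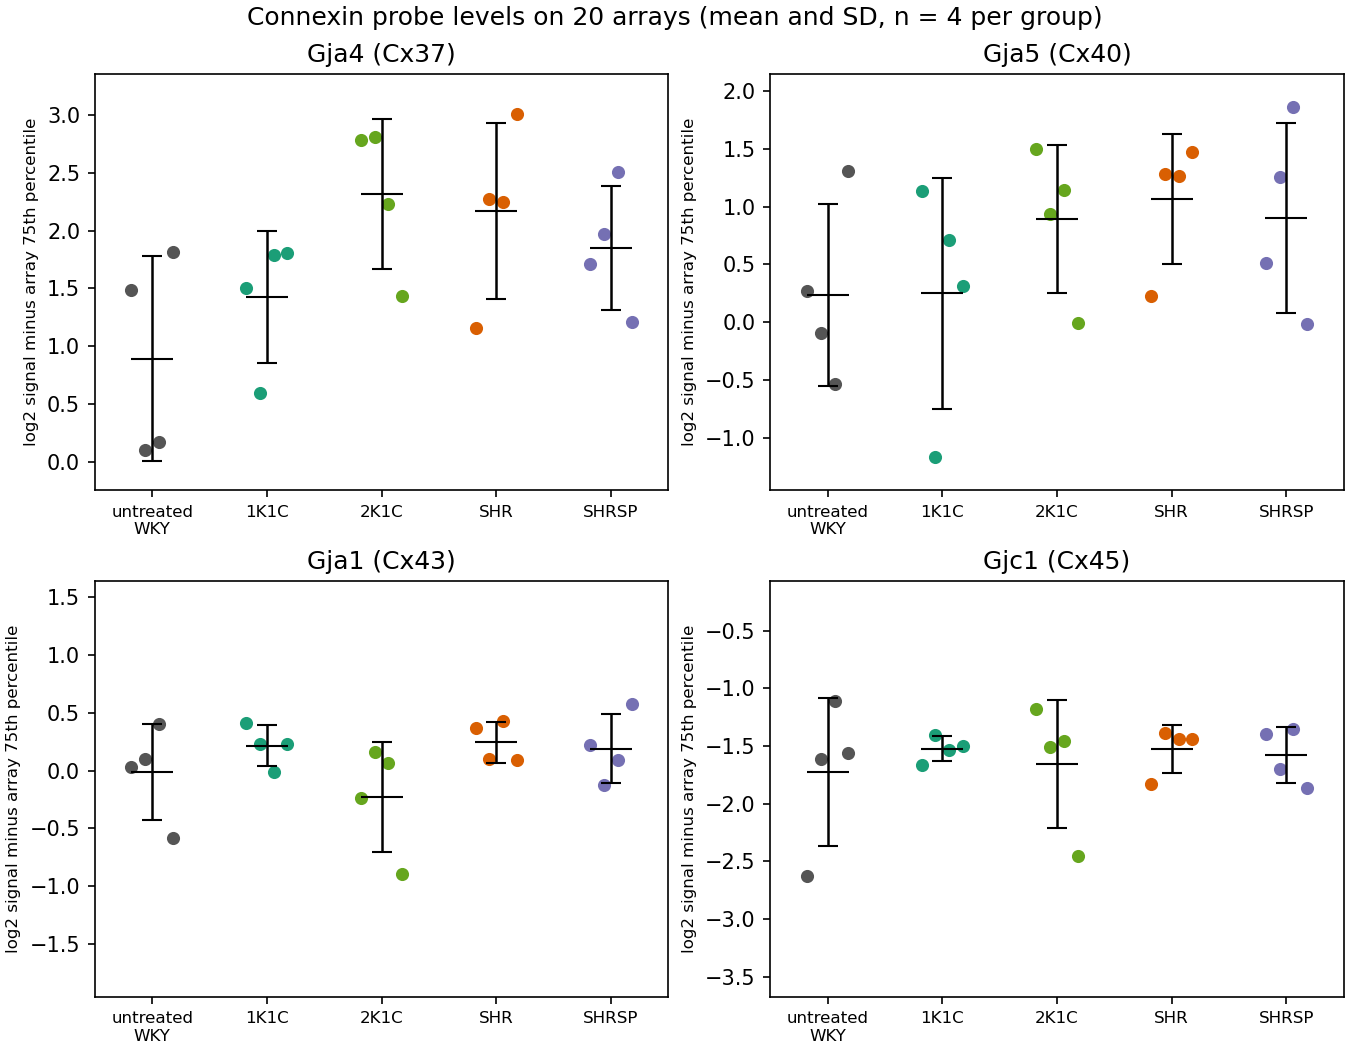
Level of each connexin probe on every array, as log2 signal minus the 75th percentile of the array, by group. Points are arrays in the order of their replicate number, bars are the mean and SD of 4 arrays, and each panel spans the same number of log2 units. In the Gja4 panel the untreated WKY arrays split into a pair at 0.098 and 0.17 and a pair at 1.49 and 1.82, and every group overlaps them.

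The comparison of each hypertensive group with untreated WKY asks whether the connexin transcripts differ in that form of hypertension. All groups were fitted together with limma, and a difference was called where its p-value, adjusted by Benjamini-Hochberg over the 16424 genes, was under 0.05. Against untreated WKY, 0 of 4 members were called in 2K1C, where 0.0122% of all tested genes were, 0 of 4 in 1K1C, where 0% were, 0 of 4 in SHR, where 1.84% were, and 0 of 4 in SHRSP, where 2.39% were. At an unadjusted p under 0.05, Gja4 passed in 2K1C and in SHR, where 22% and 14% of all genes did, and 0 of 4 members passed in 1K1C and in SHRSP, where 9.09% and 16.7% did. No member had groups that did not overlap, against 7.76% of genes in 2K1C, 3.81% in 1K1C, 6.14% in SHR and 11.3% in SHRSP. In the operated rats that background depends on single arrays. Without untreated WKY replicate 4 it was 5.3% in 2K1C, where Gja4 was then called, and 1.25% in 1K1C, and without 2K1C replicate 3 it was 2.59% in 2K1C, with no member called in 1K1C or in that last fit.

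Gja4 had the largest differences of the 4. Its mean was 2.68-fold that of untreated WKY in 2K1C, a log2 difference of 1.42 with a 95% interval of 0.46 to 2.39 (limma adjusted p = 0.125). In SHR the log2 difference was 1.28, from 0.31 to 2.24 (limma adjusted p = 0.194), and in SHRSP 0.96, from -0.0095 to 1.92 (limma adjusted p = 0.305). In 1K1C, on the same slide as the controls, it was 0.53, from -0.43 to 1.50 (limma adjusted p = 0.705). These 4 comparisons share their control arrays, and 2 of those 4 arrays were low. An exact two-sided permutation test of 4 arrays against 4, whose smallest possible p is 0.0286, gave 0.0857 for Gja4 in both 2K1C and SHR, or 0.686 after adjustment over the 24 such tests. Without untreated WKY replicate 4, a high array, the 2K1C difference was 1.73 and was called (limma adjusted p = 0.0435). With arrays weighted by how closely their genes followed the group means, Gja4 was called in 2K1C at 2.24, in SHR at 1.95 and in SHRSP at 1.54 (limma adjusted p = 0.00155, 2.84e-05 and 0.000358). The weights were 3.54 and 1.99 for untreated WKY replicates 2 and 3, the low arrays, and 0.26 and 0.48 for replicates 1 and 4. Under those weights 28.8% of all genes were called in 2K1C, 45.7% in SHR and 33.2% in SHRSP.

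For Gja5 the log2 difference from untreated WKY was 0.83 in SHR, with an interval of -0.25 to 1.91, and 0.67 in SHRSP, from -0.41 to 1.75. In 2K1C it was 0.66, from -0.42 to 1.74, and in 1K1C 0.013, from -1.07 to 1.09. The limma adjusted p-values ran from 0.444 to 0.994. These intervals span a change of more than 1 log2 unit upward, so a difference of that size could not be told from none with 4 arrays a group. With array weights Gja5, like Gja4, was called in 2K1C at 1.14, in SHR at 1.36 and in SHRSP at 0.99 (limma adjusted p = 0.0475, 0.0022 and 0.0255).

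The Gja1 and Gjc1 intervals were narrower. Gja1 differed from untreated WKY by -0.21 in 2K1C (95% interval -0.70 to 0.27), 0.23 in 1K1C (-0.25 to 0.71), 0.26 in SHR (-0.22 to 0.74) and 0.20 in SHRSP (-0.28 to 0.68). Gjc1 differed by 0.076 in 2K1C (-0.51 to 0.66), 0.20 in 1K1C (-0.38 to 0.79), 0.20 in SHR (-0.38 to 0.79) and 0.15 in SHRSP (-0.43 to 0.73). A change of 1 log2 unit in either direction lay outside all 8 intervals.

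Marker lists of other cells are set beside the Gja4 values. White adipocyte markers were higher than in untreated WKY for 0 of 9 in 2K1C, with a median log2 difference of -0.95, for 1 of 9 in SHR, with -0.24, for 0 of 9 in SHRSP, with -0.41, and for 9 of 9 in 1K1C, with 0.46. Smooth muscle markers had a median difference of 0.45 in 2K1C, 0.38 in SHR, 0.41 in SHRSP and -0.93 in 1K1C. Endothelial markers had medians of 0.27 in 2K1C, 0.44 in SHR, 0.37 in SHRSP and 0.29 in 1K1C, with 8, 10, 9 and 10 of 11 higher. The median over all genes lay between 0.0036 and 0.099 in these comparisons, and no gene of these 3 lists was called in them. Other lists had some larger medians, though pancreas and mesothelium scores varied widely among the untreated WKY arrays, as given below. Exocrine pancreas markers had medians of 1.84 in SHR, 1.12 in SHRSP, 0.56 in 1K1C and -0.43 in 2K1C, and mesothelium markers -1.14, -2.38, -1.75 and -1.78. Nerve and Schwann cell markers had -1.71, -1.57, -1.41 and -0.98, and erythroid markers -1.01, -0.73, -0.023 and -0.32. Lymphocyte markers, of which 3 were tested, had 0.27, 0.97, 0.53 and 1.81. Brown adipocyte markers, of which 3 were tested, had -0.86, -1.04, -0.12 and -1.22. Marker genes that passed were the fibroblast gene Dpt, higher in SHR by 1.62 and in SHRSP by 1.28, the nerve genes Prph and Gap43, lower in SHR (-3.50 and -2.97) and SHRSP (-3.51 and -3.02), and Ppargc1a, of the brown adipocyte list, lower in SHR (-1.37), with limma adjusted p from 0.000785 to 0.0438. In alternative fits Prph was no longer called in 10 of 20 for SHR and 10 of 20 for SHRSP. Gap43 was lost in 10 and 8 of 20, Ppargc1a in 9 of 19 and Dpt in 0 and 1 of 20. Among untreated WKY arrays Prph ran from -0.80 to 4.85 and Gap43 from -1.57 to 3.33. Summed as a mean of centred levels, the white adipocyte score ran from -1.26 to -0.26 in 2K1C and from -0.62 to 0.89 in untreated WKY, and the endothelial score from -0.38 to 0.16 and from -0.53 to 0.37. The exocrine pancreas score ran from -4.97 to 2.55 in untreated WKY and from -3.84 to 3.27 in SHRSP. The mesothelium score ran from -0.65 to 3.63 in untreated WKY, and the lymphocyte score from -2.18 to 6.11 in 2K1C. No gene of the pancreas or mesothelium list was called. Untreated WKY replicates 2 and 3, the control arrays low in Gja4, had mesothelium scores of 3.63 and 2.47, while replicates 1 and 4 had -0.65 and -0.44. White adipocyte scores were 0.89 and 0.78 on replicates 2 and 3 and -0.62 and 0.023 on replicates 1 and 4. The part of these cells in the Gja4 values was not tested.

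SHRSP against SHR asks what sets the stroke-prone substrain apart, and here both groups lay on 1 slide, in separate rows. Of the members 0 of 4 were called, against 0.359% of all genes. Gja4 differed by -0.32, with a 95% interval of -1.29 to 0.64, Gja5 by -0.16 (-1.24 to 0.92), Gja1 by -0.056 (-0.54 to 0.43) and Gjc1 by -0.053 (-0.64 to 0.53). At an unadjusted p under 0.05 no member passed, against 3.56% of genes, and no member had groups that did not overlap, against 3.5%. For Gja4 and Gja5 the intervals still allow a change of 1 log2 unit downward, and for Gja1 and Gjc1 they do not.

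Between the operations, 1K1C against 2K1C, 0 of 4 members were called and 0% of all genes were. That background hangs on single arrays, since 11.5% of genes were called without 1K1C replicate 4 and 1.8% without 2K1C replicate 3, with still no member among them. Gja4 and Gja5 were lower in 1K1C by log2 differences of -0.89 (-1.86 to 0.075) and -0.65 (-1.73 to 0.44), and Gja1 was higher by 0.44 (-0.040 to 0.92), without passing the test. Gjc1 differed by 0.13 (-0.45 to 0.71). At an unadjusted p under 0.05 no member passed, against 21.5% of genes, and none had groups apart, against 9.75%. The mean of SHR and SHRSP was set against the mean of both operations as inherited against renovascular forms, with 0 of 4 members called and 3.16% of all genes. The differences there were 0.14 (-0.54 to 0.82) for Gja4, 0.41 (-0.35 to 1.18) for Gja5, 0.22 (-0.12 to 0.56) for Gja1 and 0.038 (-0.37 to 0.45) for Gjc1. No member passed at an unadjusted p under 0.05, against 17.6% of genes, and none had groups apart, against 1.02%. In a moderated F test for any difference among the 5 groups, 0 of 4 were called, against 3.22% of genes. Gja4 had the largest F of the 4, at 3.20 (limma adjusted p = 0.190), and passed at an unadjusted p of 0.0386, as 23.6% of genes passed at 0.05.

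**Figure D2:**
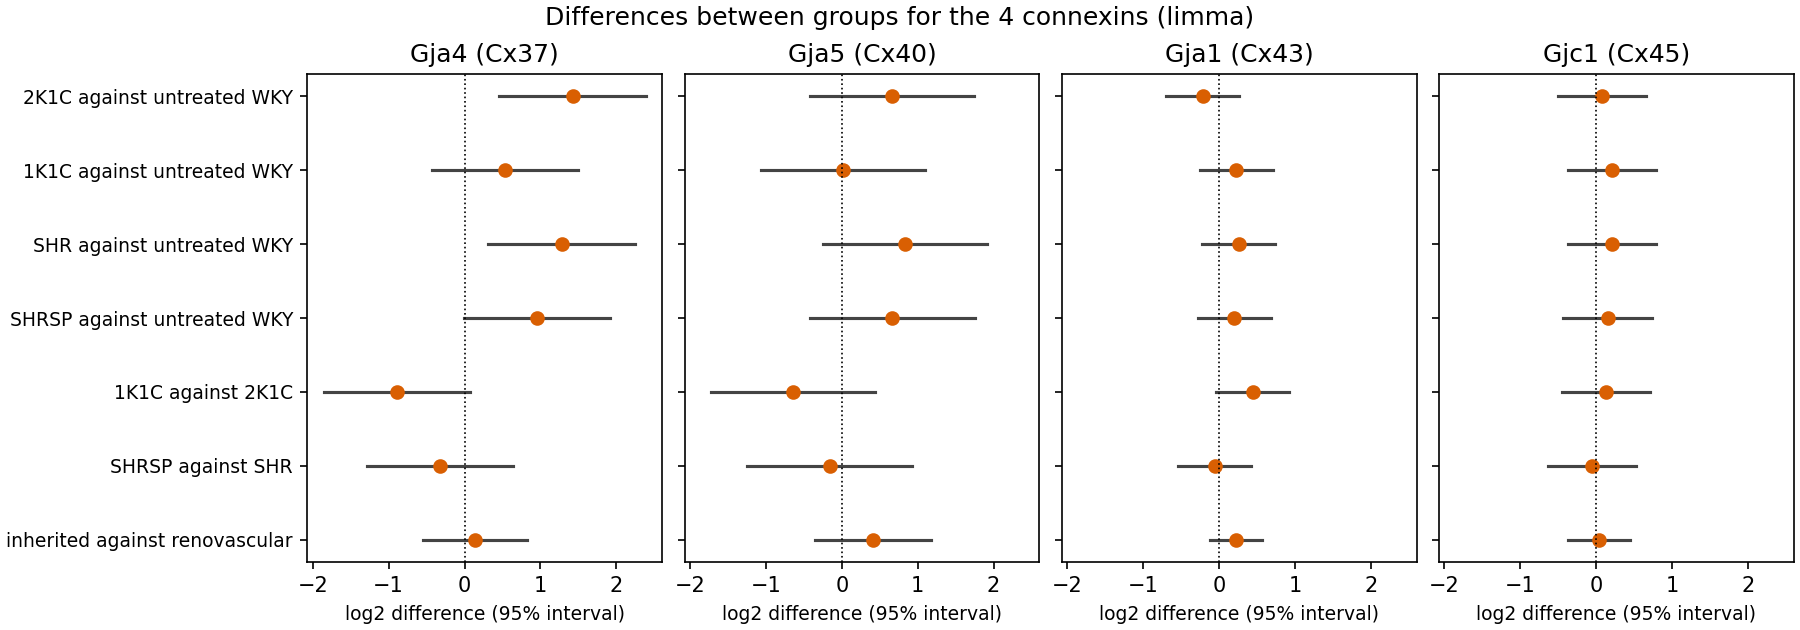
Log2 differences between groups for the 4 connexins, with 95% intervals from the limma fit over 20 arrays. Each panel is a gene and each row a comparison, and the dotted line marks no difference. The Gja4 intervals against untreated WKY lie above 0 in 2K1C and SHR before adjustment for the genes tested, and the Gja1 and Gjc1 intervals are the narrowest.

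Within groups, Gja4 and Gja5 were high or low together from array to array. Over 20 arrays the deviations of the 2 transcripts from their group means had a Pearson r of 0.85 and a Spearman rho of 0.76 (permutation within groups, adjusted p = 0.00154 and 0.0066 over 22 correlations). Without the 2 arrays farthest out in Gja5, 1K1C replicate 2 and SHRSP replicate 4, r was 0.83. Within slide 2 it was 0.81 and within slide 3 it was 0.91, over 8 arrays each. Over the 4 arrays of 2K1C, on slide 1, it was 0.86. On every one of the 6 arrays where Gja4 lay more than 0.5 below its group mean, Gja5 lay below its own. Both points of a pair come from 1 hybridisation, so they share the array, its scaling and the tissue sample. The 6 arrays low in Gja4 also had the highest mesothelium and macrophage scores of their groups. Their mesothelium scores were 3.63 and 2.47 on untreated WKY replicates 2 and 3, 3.00 on 1K1C replicate 2 and 1.13 on 2K1C replicate 4. SHR replicate 1 had 3.99 and SHRSP replicate 4 had -0.15. Lymphocyte scores on 2K1C replicate 4 and SHRSP replicate 4 were 6.11 and 4.37, the highest of the 20 arrays. They were -1.99 and -1.41 on untreated WKY replicates 2 and 3, -0.10 on 1K1C replicate 2 and 0.96 on SHR replicate 1. The part of other tissue in the shared variation was not tested.

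Gja1 had no correlation with either that passed. Its r with Gja4 was -0.24 (permutation adjusted p = 0.577) and with Gja5 -0.25 (permutation adjusted p = 0.575). Without the 2 arrays farthest out in Gja4, SHR replicate 1 and 2K1C replicate 4, the r with Gja4 was -0.55, and without those farthest out in Gja5 the r with Gja5 was -0.18. Within slides 2 and 3 the r with Gja4 was -0.68 and -0.64 and that with Gja5 -0.54 and -0.72, while over the 4 arrays of 2K1C, on slide 1, it was 0.81 and 0.74. For Gjc1, r was 0.15 with Gja4, 0.23 with Gja5 and 0.30 with Gja1, with permutation adjusted p-values from 0.577 to 0.707.

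Set beside the marker scores, Gja5 tracked the endothelial markers, with r of 0.83 and rho of 0.77 (permutation within groups, adjusted p = 0.00418 and 0.0177). That r was 0.78 without untreated WKY replicate 4 and 1K1C replicate 1, 0.83 within slide 2 and 0.79 within slide 3. Over the 4 arrays of a group it was 0.14 in SHR and ran from 0.85 to 0.996 in the other groups. Gja4 had an r of 0.58 with the same markers (permutation adjusted p = 0.0507). With smooth muscle markers the r was 0.66 for Gja4, 0.66 for Gja5 and 0.40 for Gjc1 (permutation adjusted p = 0.0205, 0.039 and 0.039), though no rho passed. Without 1K1C replicate 2 and SHR replicate 1, whose smooth muscle scores of -3.12 and -1.15 were the lowest, these became 0.50, 0.42 and 0.59. Within slide 2 they were 0.43, 0.52 and 0.072, and within slide 3 they were 0.90, 0.80 and 0.83. Leaving out those 2 arrays thus lowered r for Gja4 and Gja5 and raised it for Gjc1, and r was higher on slide 3 than on slide 2 for each. Over the 4 arrays of untreated WKY, r with smooth muscle markers was -0.64 for Gja4 and -0.62 for Gja5. For Gjc1 it was -0.46 in 1K1C. In the other groups these r values were positive. Gja4 went against the white adipocyte markers with an r of -0.65 (permutation adjusted p = 0.0507). The r of Gja1 with the 4 marker lists ran from -0.18 to 0.20, and no correlation with fibroblast markers passed for any member.

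**Figure D3:**
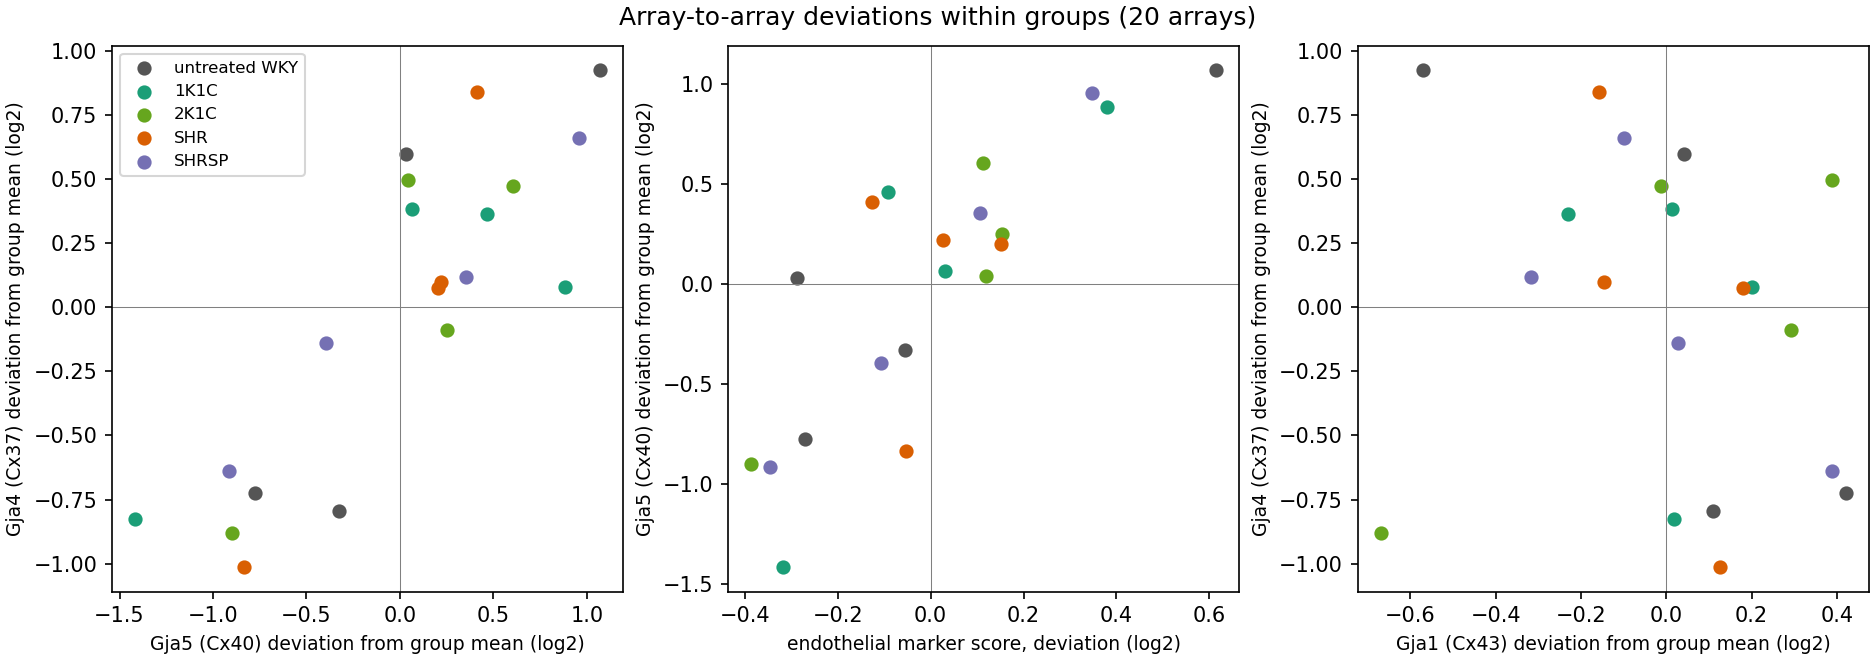
Deviations of each array from its group mean, in log2 units, for Gja4 against Gja5 (left), Gja5 against the mean of 11 endothelial markers (middle) and Gja4 against Gja1 (right). Points are the 20 arrays, coloured by group. The left and middle panels run from lower left to upper right, with r of 0.85 and 0.83, and the right panel has an r of -0.24.

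The promoters of Gja4 and Gja5 are printed because their transcripts moved together. Each is the 250 bases before the gene's start, from RefSeq on GRCr8, where 3 of the 4 members, all but Gjc1, had an entry. Capitals mark the GC box, GGGCGG or its reverse CCGCCC.
Gja4 promoter: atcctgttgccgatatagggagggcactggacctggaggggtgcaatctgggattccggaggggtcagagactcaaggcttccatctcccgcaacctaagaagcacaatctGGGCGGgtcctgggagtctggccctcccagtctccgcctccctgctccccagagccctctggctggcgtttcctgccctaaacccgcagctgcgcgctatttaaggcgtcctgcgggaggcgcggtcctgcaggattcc
Gja5 promoter: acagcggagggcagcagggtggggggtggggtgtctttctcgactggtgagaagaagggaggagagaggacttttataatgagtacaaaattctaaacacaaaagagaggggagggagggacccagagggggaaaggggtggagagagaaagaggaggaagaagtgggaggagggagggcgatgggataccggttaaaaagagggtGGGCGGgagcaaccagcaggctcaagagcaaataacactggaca
They lie at chr5:144920325-144920574 on the minus strand and chr2:187290977-187291226 on the plus strand. Searched on both strands, the GC box occurred in 1 place in each, with its first base 139 bases before the start of Gja4 and 44 bases before that of Gja5, and in none of the Gja1 promoter. It is present in 30.5% of the 33469 rat promoters of the same length. The CACC box, CACCC or GGGTG, which Klf factors are known to bind, occurred 1 time in Gja4, 5 times in Gja5 and 0 times in Gja1, against 49.2% of promoters with any. In Gja5, 1 of those matches overlaps the GC box. The TATA box letters TATAAA or TTTATA occurred 1 time in Gja5, with the first base 178 bases before the start. They occurred 0 times in Gja4 and Gja1, and are present in 12.9% of promoters. The matches describe letters in these windows.

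Among all genes with a symbol, those most like each member were found by Pearson r over 20 arrays, as a description. Deviations of Gja5 from group means were most like those of Gprc5a, a membrane receptor (r = 0.97), Esam, an adhesion molecule of endothelium that is also in the endothelial marker list (0.95), and Gucy1a2, a subunit of the nitric oxide receptor (0.95). Over all arrays without centring they were Gprc5a (0.97), Igf2, a growth factor (0.95), and Esam (0.94). For Gja4 the genes within groups were Sfxn3, Mustn1 and Mob2 (0.97, 0.96 and 0.96), and without centring Nherf2, Chmp4c and Cdh13, which encodes T-cadherin (0.96, 0.95 and 0.95). Gjc1 was nearest to Slc20a2, a phosphate transporter, Epha4, an ephrin receptor, and Pcdh18, a protocadherin, within groups (0.94, 0.92 and 0.91), and to Slc20a2, Vstm4 and Dlgap4 without centring (0.88, 0.88 and 0.84). Gja1 had less close neighbours, Tacr3, Cimap1c and Ppargc1a within groups (0.80, 0.78 and 0.74) and Cct8l2, Dnajc28 and Ahsa1 without centring (0.75, 0.67 and 0.67).

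Other channel genes were mostly at background. Of 16 further connexins, 14 were not well above background on all arrays of any group. Gjb2 (Cx26), a connexin of epithelia, was tested, and its level spanned -4.93 to -0.72 in untreated WKY and -4.02 to -0.72 in 1K1C, but -2.38 to -0.60 in SHR and -2.03 to -0.46 in SHRSP. Its difference from untreated WKY was 1.71 in SHR (limma adjusted p = 0.339), 1.76 in SHRSP (limma adjusted p = 0.275) and 1.57 in 2K1C (limma adjusted p = 0.25). In 1K1C, on the same slide as the controls, it was 0.32 (limma adjusted p = 0.903).

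Pannexins form channels in single membranes that release ATP, and Panx1 is the one known in the artery wall. Its level was -2.65, -2.87, -2.65 and -3.15 in untreated WKY, -3.42, -4.04, -3.76 and -3.57 in SHR, and -3.86, -3.75, -4.20 and -3.01 in SHRSP. All 4 SHR arrays lay below all 4 controls, and groups did not overlap for 6.14% of all genes in that comparison. Of the SHRSP arrays, 3 of 4 lay below all controls. SHR and SHRSP were on another slide than the controls. The log2 difference was -0.86 in SHR, with an interval of -1.45 to -0.28 (limma adjusted p = 0.134), and -0.87 in SHRSP, from -1.46 to -0.29 (limma adjusted p = 0.113), and neither passed. Without SHRSP replicate 4 the SHRSP difference was -1.11 (limma adjusted p = 0.0476), and with array weights Panx1 was called at -1.08 in SHR and -0.97 in SHRSP (limma adjusted p = 0.000132 and 0.000564), in fits that called 45.7% and 33.2% of all genes. Panx2 was above background on 3 arrays, all untreated WKY, where its level was -3.93, -5.57, -4.74 and -5.92, and on 0 of 4 arrays of every other group. Panx2 was named after its values were seen and was not tested. The highest Panx2 array, untreated WKY replicate 1, also had the highest nerve and Schwann cell score of the 20 arrays, 3.22, and the other untreated WKY scores lay between -0.051 and 0.23. The part of nerve in the Panx2 values was not tested.

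**Figure D4:**
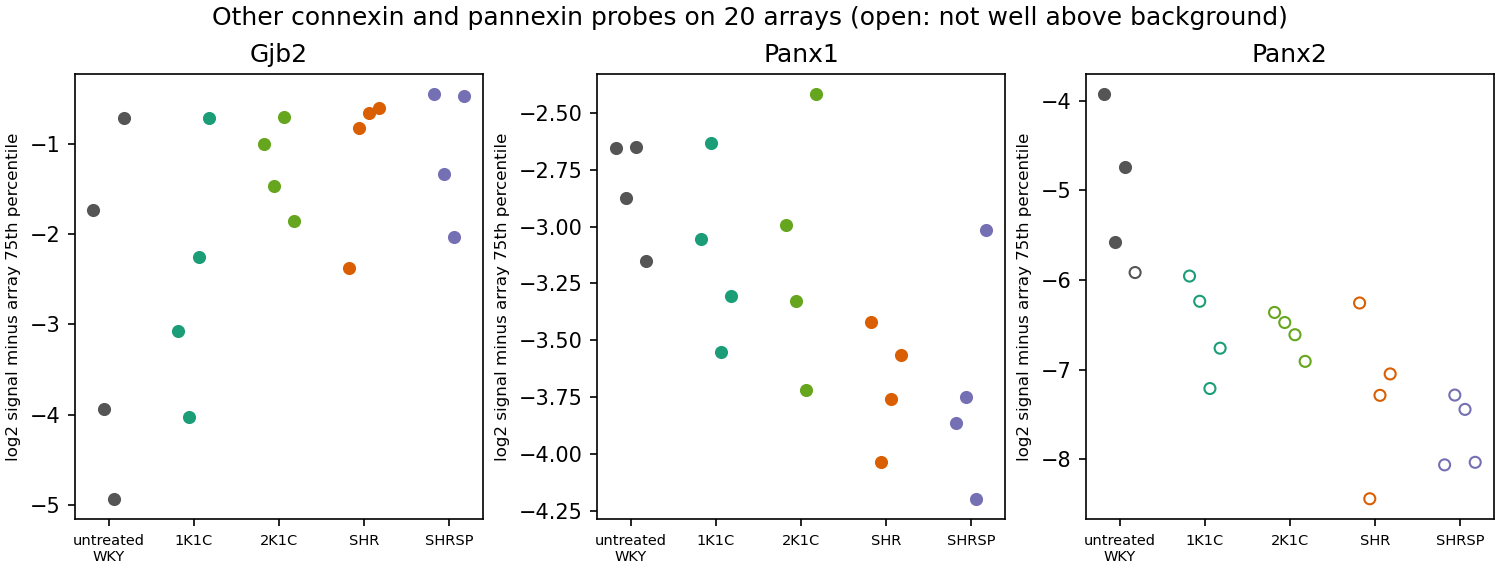
Levels of Gjb2, Panx1 and Panx2 on every array, as log2 signal minus the 75th percentile of the array, by group, with open points where the probe was not well above background. Panx1 lies between -4.04 and -3.42 in SHR and between -3.15 and -2.65 in untreated WKY, and Panx2 has filled points in untreated WKY only.

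The genes that act with connexins were read as lists. Of 16 tested arterial endothelial regulators, 1 was called higher in SHR and none lower, against 1.84% of all genes called there. That gene was Klf2, a flow-induced transcription factor of endothelium, which rose in SHR by 0.97, from a mean of -1.64 ± 0.18 (SD, n = 4) in untreated WKY to -0.68 ± 0.29, with groups that did not overlap, as in 6.14% of genes (limma adjusted p = 0.0306). The list's median difference was 0.43 in SHR, 0.26 in SHRSP, 0.32 in 2K1C and 0.17 in 1K1C, beside 0.018, 0.0036, 0.035 and 0.099 over all genes. Klf2 was no longer called without untreated WKY replicate 1, 2 or 3, without SHR replicate 2, 3 or 4, without scaling, or with only the compared groups in the fit, with adjusted p up to 0.158. Its difference was 0.59 in SHRSP, 0.76 in 2K1C and 0.24 in 1K1C, none of them called.

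The 16 tested partners and trafficking factors, 12 kinases and phosphatases and 12 smooth muscle and cardiac regulators had 0 called genes in each of the 7 comparisons. Of all tested genes, 0% to 3.16% were called in those comparisons, so lists of this size could hold few called genes or none. The largest F values there belonged to Cnst (3.104) and Cdh5 (2.61) among partners, Prkcd (6.83) and Src (3.89) among kinases, and Mef2c (4.11) and Sp1 (4.10) among regulators. Cnst encodes consortin, which helps deliver connexins to the membrane, and Prkcd a protein kinase C isoform. Prkcd was higher than in untreated WKY by 0.94 in 2K1C (limma adjusted p = 0.0903) and by 0.72 in SHRSP (limma adjusted p = 0.0525), and Mef2c, a muscle transcription factor, by 1.33 in 2K1C (limma adjusted p = 0.0979).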

How the data were processed

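Each sample was Cy3-labelled and hybridised alone to a 60-base Agilent rat array, per the labels. The authors deposited spot intensity on a linear scale; the background had been subtracted by Agilent Feature Extraction (version 10.7.3.1 in the submitters' processing notes), per the file headers, and the deposited value table repeats that intensity unscaled. From it, log2 values were taken relative to the 75th percentile of each array's gene spots. Outlier spots were dropped and spots of a probe averaged. Probes well above background (over 0.5 of their spots) on all 4 arrays of a group were kept (18899), and the brightest probe stood for each of 16424 genes. limma 3.58.1 (R 4.3.3) fitted all 20 arrays with lmFit and eBayes; tests are two-sided, adjusted by Benjamini-Hochberg at 0.05, with 95% intervals. Correlations used deviations from group means and 100000 permutations within groups. The script was tested on simulated data. The members and gene lists were chosen with earlier results of these data known. Named genes were the members, other tested connexins and pannexins, called genes of each list (or else its 2 with the largest F) and the 3 genes most like each member; Panx2 was added after its values were seen. Some genes this rule names are not reported here. Alternatives covered scaling (quantile, normexp with an offset of 50, array median, none), probe and spot filters, the mean of a gene's probes, all kept probes, the compared groups alone, array weights, a replicate block and leaving out each array. Coordinates are on rn4, from the files, and promoters on GRCr8, from RefSeq.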

Additional observations from a re-analysis of the deposited data

Results flagged for a closer look

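In SHR, the first array was far below the other 3 for 3 connexins. Its Gja5 level was 0.23, with the next lowest at 1.27, its Gjc1 level -1.83, with the next lowest at -1.44, and its Gjb2 level -2.38, with the next lowest at -0.83. Each gap took up at least 0.833 of the range of the 4 arrays. Of 45 groups of 4 arrays examined for 9 genes, 3 had such a sample, and chance alone marks about 1 group in 20. The same array had the lowest smooth muscle score of SHR, -1.15, and the highest white adipocyte score of SHR, 1.15. Its mesothelium score, 3.99, was the highest of the 20 arrays, with the other SHR arrays between -1.15 and -0.73. Without it, the SHR difference from untreated WKY of Gja5 was 1.11 and that of Gjc1 was 0.31, and neither was called.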

How the results depend on the processing

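Most member results kept their direction and their side of the threshold. Over the alternatives that keep all arrays, 362 of 380 values did, 8 became called and 10 changed sign, and leaving out single arrays left 316 of 336, with 1 newly called and 19 of changed sign. All calls among the first set came with array weights, for Gja4 at 2.24 in 2K1C, 1.95 in SHR and 1.54 in SHRSP and an F of 22.003, and for Gja5 at 1.14, 1.36 and 0.99 and an F of 5.81. Array weights also turned small differences to -0.031 for Gja1 in SHRSP against untreated WKY and, for Gjc1, to -0.013 in 2K1C, -0.039 in 1K1C and -0.053 in SHRSP against untreated WKY and -0.026 between the operations. Without scaling, SHRSP against SHR became 0.12 for Gja1, 0.019 for Gja5 and 0.13 for Gjc1, Gja5 in 1K1C became -0.14 and Gjc1 in 2K1C -0.15. The cause was not tested. Leaving out 1 array moved Gja4 in 2K1C against untreated WKY between 1.16 and 1.73. Against untreated WKY, ranges that crossed 0 were -0.40 to 0.0093 for Gja1 in 2K1C and -0.28 to 0.49 for Gja5 in 1K1C, and for Gjc1 -0.22 to 0.34 in 2K1C, -0.096 to 0.41 in 1K1C, -0.096 to 0.41 in SHR and -0.15 to 0.36 in SHRSP. In SHRSP against SHR they were -0.19 to 0.050 for Gja1, -0.48 to 0.14 for Gja5 and -0.16 to 0.041 for Gjc1, between the operations -0.14 to 0.28 for Gjc1, and between inherited and renovascular forms -0.0073 to 0.31 for Gja4 and -0.096 to 0.12 for Gjc1. Pooling arrays without centring gave an r of 0.65 for Gja4 with endothelial markers and -0.69 with white adipocyte markers, both then past the threshold, 0.30 for Gjc1 with smooth muscle markers, no longer past it, and for Gja1 0.0016, -0.059 and 0.19 with endothelial, smooth muscle and fibroblast markers. Quantile normalization gave -0.66 for Gja4 with white adipocyte markers (permutation adjusted p = 0.044). Replicate numbers did not pair the samples, since deviations of same-numbered arrays of different groups had a mean correlation of 0.00056, and 13 of 40 such pairs were over 0.1. With the number as a replicate block, Gja4 in 2K1C against untreated WKY stayed at 1.42 (limma adjusted p = 0.135) and no member was called. Counts of called genes moved more. In SHR against untreated WKY 303 genes became 120 without scaling, 186 with probes above background on all arrays, 102 with only the compared groups and 7509 with array weights. In SHRSP 393 became 207, 161 (compared groups) and 5447, in 2K1C 2 became 0, 0 and 4723, and 70 with normexp, and in 1K1C 0 became 2 without scaling, 7 with quantile normalization and 490 with array weights. In SHRSP against SHR 59 became 39, 29 and 39 in those settings and 863 with weights, and with weights the inherited against renovascular count went from 519 to 3575 and that of the F test from 529 to 9566.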

Other observations

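Gjb2 varied with markers of the mesothelium, the lining of the abdominal cavity. Its deviations from group means had an r of -0.71 and a rho of -0.69 with 4 tested mesothelium markers over 20 arrays (permutation within groups, adjusted p = 0.0228 and 0.0468 over 4 correlations), so Gjb2 was lower where those markers were higher. Without SHR replicate 1 and 1K1C replicate 2 the r was -0.64. With exocrine pancreas markers the r was 0.32, with endothelial markers 0.31 and with smooth muscle markers 0.42, none past the threshold. These 4 correlations were chosen after the Gjb2 values were seen.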
